A study of Chlorocebus aethiops with 36 samples.

Results

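Type I interferon-stimulated genes were followed in the livers of 12 male African green monkeys. The members were 39 genes listed by symbol as interferon-stimulated, and each was read by the probe set of its own with the highest mean over all 36 arrays. Of the 39 genes, 34 were tested among 13634 genes, 4 (IFI44L, DDX60, SAMD9 and TRIM22) lay below the filter on dim probe sets, and STAT2 was not analysed here. The anti-miR-33 arm (6 animals) received an oligonucleotide that binds and blocks the microRNA miR-33, and the control arm (6 animals) received a control anti-miR. Both were given at 5 mg/kg under the skin, as repeated doses over the whole study. Each animal gave a liver biopsy at 3 times. Week -5 (baseline) came before any dose, week 4 came under treatment with the animals still fed chow, and week 12 followed 8 weeks of a diet high in carbohydrate and of medium cholesterol content. Baseline labels name no arm, so the identifier of the animal gave it. There was no arm without an oligonucleotide and no arm that stayed on chow. In a change to week 12 the treatment, the diet, the biopsy and time itself thus cannot be told apart. By the design text the animals ate chow at both ends of the change from baseline to week 4. In that change the treatment, the biopsy and time cannot be told apart.

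Type I interferons are signal proteins that cells release when they sense foreign or misplaced nucleic acid. They bind the receptor chains IFNAR1 and IFNAR2, whose kinases JAK1 and TYK2 activate STAT proteins, and these enter the nucleus with IRF9 and switch on a shared set of antiviral genes. Hepatocytes, Kupffer cells and sinusoidal endothelial cells all carry the receptor, and the products of these genes detect viral RNA, block its translation, cut it or trap new virus particles. Several of the genes respond to interferon gamma too. PSMB9 and TAP1 of antigen processing are not among the members and are followed below with genes that respond chiefly to interferon gamma.

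Values are log2 expression values from a human array on monkey RNA. Probes that mismatch the monkey transcript read too low, whatever the group, and levels were therefore not compared between genes. The liver label was borne out by the hepatocyte markers, 10 secreted-protein genes such as ALB, TTR and APOB, whose mean lay between 13.31 and 13.69 on all arrays but 1. That was the week 12 array of control animal 5, at 12.96, and values that it moved by over 1.5 times are given with and without it. The week 4 array of control animal 1 carries the later diet in its label, although the design text gives chow for that time. The week 4 arrays bear a separate run of array numbers from the others, so week 4 and that run cannot be told apart. Degraded RNA gives more signal from the 3′ than from the 5′ end of a transcript. That 3′ minus 5′ difference, read from the array's controls for GAPDH and ACTB, averaged 2.57 ± 0.43 in the baseline biopsies, 1.94 ± 0.41 in week 4 and 1.83 ± 0.16 in week 12 (SD, n = 12 each), so it moved with time. Replicates are animals, and a gene was called where limma's adjusted p was under 0.05 over all 13634 genes.

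Many interferon-stimulated genes were higher at both treated times than at baseline, more of them in the control arm than in the anti-miR-33 arm by count. At week 12, 25 of the 34 were called higher than at baseline and 0 lower with the arms averaged, where 10.9% of all genes tested were called higher. Their median change was 0.36 on the log2 scale, against -0.01 over all genes. At week 4, 20 of the 34 were called higher than at baseline and 0 lower, where 15.1% of all genes tested were called higher, and the median change was 0.24, against -0.01 over all genes. With the 3′ minus 5′ difference as a covariate, 14 of the 25 and 11 of the 20 stayed called, where 0.902% and 9.33% of all genes tested were called higher in the same fits. The genes called in both fits at week 12 were EPSTI1, HERC5, HERC6, IFI44, IFI6, IFIH1, IFIT1, IRF7, IRF9, ISG15, OAS1, OASL, PARP9 and RSAD2. Between weeks 4 and 12 the change was smaller, with 6 members called higher, where 13.7% of all genes were, and 1 called lower, where 13.9% were. A share near the background is not a result about these genes, and the median change between those weeks was 0.08.

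**Figure D1:**
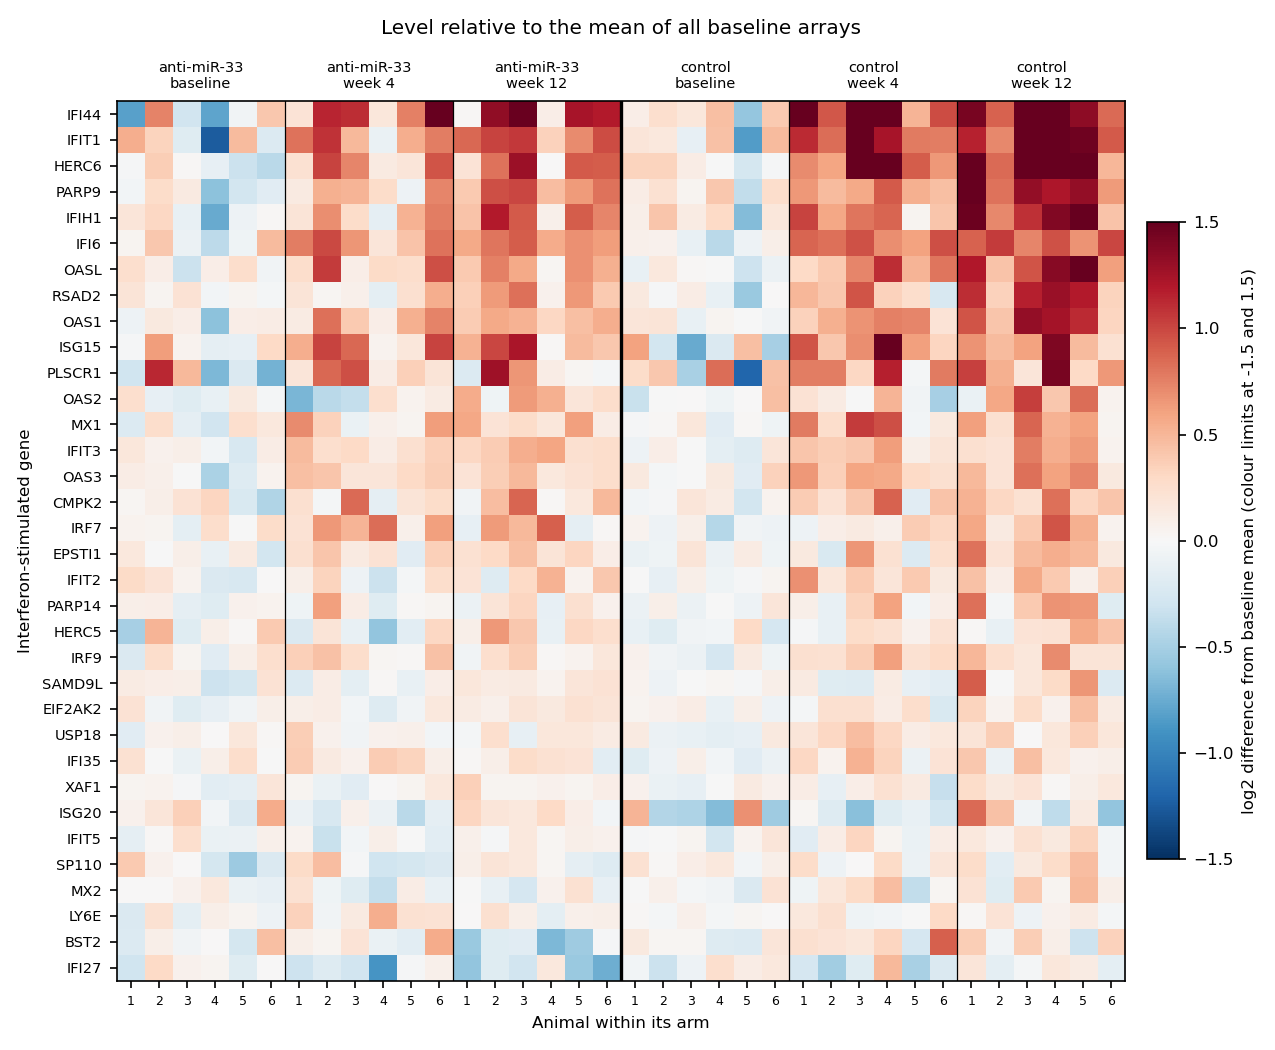
Log2 difference of each of the 34 tested interferon-stimulated genes (rows, ordered by their change to week 12) from its mean over the 12 baseline arrays, for every animal (columns) in anti-miR-33 and control arms at baseline, week 4 and week 12. Red is higher and blue lower than the baseline mean, with colours limited at -1.5 and 1.5, and the upper rows are red at weeks 4 and 12 in both arms, most deeply in control animals 1, 3, 4 and 5 at week 12.

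The mean of the 34 genes on each array showed how far the animals shared the change. In anti-miR-33 animals 1 to 6 the baseline means were 6.19, 6.39, 6.18, 5.98, 6.13 and 6.22, the week 4 means 6.38, 6.54, 6.40, 6.20, 6.31 and 6.58, and the week 12 means 6.35, 6.60, 6.65, 6.34, 6.47 and 6.45. In control animals 1 to 6 the baseline means were 6.25, 6.20, 6.15, 6.17, 6.06 and 6.25, the week 4 means 6.57, 6.43, 6.66, 6.78, 6.34 and 6.43, and the week 12 means 6.83, 6.47, 6.77, 6.85, 6.82 and 6.42. Every animal was higher at week 4 and at week 12 than at its own baseline. At week 12 control animals 1, 3, 4 and 5 lay above all 6 anti-miR-33 animals, while control animals 2 and 6 lay inside the anti-miR-33 range of 6.34 to 6.65. Of the 34 genes, 11 were higher at week 12 than at baseline in 12 of 12 animals, where 1.66% of all genes were: EPSTI1, HERC6, IFI44, IFI6, IFIH1, IFIT1, ISG15, OAS1, PARP9, PLSCR1 and RSAD2.

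**Figure D2:**
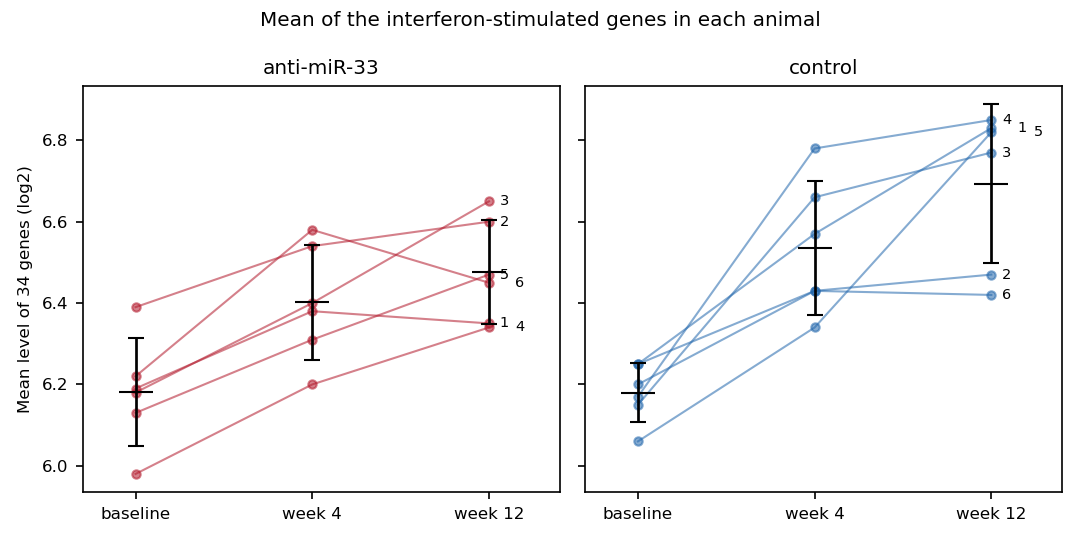
Mean log2 level of the 34 interferon-stimulated genes on each array, joined within animals (numbered at week 12), for anti-miR-33 (left, red) and control (right, blue). Black bars are means ± SD over 6 animals, and all lines end above their baseline, with 4 control animals between 6.77 and 6.85 at week 12 and 2 at 6.42 and 6.47.

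Among the RNA sensors and RNA-activated enzymes, 6 of 6 tested members were called higher at week 12 than at baseline and 4 of 6 at week 4. Of all genes tested, 10.9% and 15.1% were called higher at those times. IFIH1, a cytoplasmic sensor of long double-stranded RNA, ran in the anti-miR-33 arm from 5.88 to 6.95 at baseline (median 6.61), from 6.50 to 7.40 at week 4 (median 7.04) and from 6.71 to 7.83 at week 12 (median 7.46). Control values ran from 5.98 to 7.05 (median 6.78), from 6.68 to 7.65 (median 7.33) and from 7.06 to 8.18 (median 7.88) at the same times. The lowest control value at week 12 thus lay just above the highest control value at baseline, while the anti-miR-33 ranges of those times overlapped. Its change with the arms averaged was 0.50 ± 0.13 at week 4 (limma adjusted p = 0.0027) and 0.91 ± 0.13 at week 12 (limma adjusted p = 2.34e-06; estimate ± SE, 12 animals).

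The oligoadenylate synthetases make a messenger that activates the antiviral nuclease RNase L. OAS1 ran from 5.96 to 6.22 at week 12 in the anti-miR-33 arm (median 6.13), against 5.04 to 5.80 at baseline (median 5.75). In the control arm it ran from 5.97 to 6.97 at week 12 (median 6.68), against 5.54 to 5.84 at baseline (median 5.67). Its ranges at those times did not overlap in either arm, and its change was 0.50 ± 0.09 at week 4 and 0.68 ± 0.09 at week 12 (limma adjusted p = 1.24e-06). A second probe set of OAS1 gave 0.92 at week 12. OAS3 rose by 0.38 ± 0.07 at week 4 and 0.39 ± 0.07 at week 12, but a second, dimmer probe set of it gave -0.02 and -0.06. OASL, a relative without synthetase activity that enhances RNA sensing, rose by 0.56 ± 0.11 at week 4 and 0.76 ± 0.11 at week 12 (limma adjusted p = 4.58e-06), with 0.26 and 0.25 from a second probe set. OAS2 differed from baseline by -0.06 ± 0.12 at week 4 and 0.41 ± 0.12 at week 12 (limma adjusted p = 0.00695), but a second OAS2 probe set, below the filter, gave 0.31 and 0.30. EIF2AK2, the kinase that halts translation on binding double-stranded RNA, had a small rise of 0.19 ± 0.05 at week 12 (limma adjusted p = 0.00718), and 0.40 from a second probe set. DDX60, an RNA helicase, lay below the filter, with all 36 values between 2.67 and 3.25.

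Of the IFIT family, whose proteins bind viral RNA ends and block translation, 3 of 4 members were called higher at week 12 and 2 of 4 at week 4. The shares of all genes called higher were 10.9% and 15.1%. IFIT1 ran from 7.81 to 8.53 at week 12 in the anti-miR-33 arm (median 8.39), against 6.22 to 8.01 at baseline (median 7.54). Control animals ran from 8.19 to 9.10 at week 12 (median 8.77), against 6.63 to 7.94 at baseline (median 7.63). The control ranges were apart and the anti-miR-33 ranges overlapped. IFIT1 rose by 0.83 ± 0.15 at week 4 (limma adjusted p = 4.59e-05) and by 1.04 ± 0.15 at week 12, a fold of 2.05 (limma adjusted p = 2.22e-06). IFIT3, which binds and stabilises IFIT1, rose by 0.32 ± 0.07 and 0.40 ± 0.07. IFIT2 rose by 0.27 ± 0.08 at week 12 (limma adjusted p = 0.0077), and its 0.19 ± 0.08 at week 4 missed the threshold (limma adjusted p = 0.0569). IFIT5 gave 0.11 ± 0.06 at week 12 and was not called.

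ISG15 is a ubiquitin-like protein that the HERC ligases attach to new proteins and that USP18 removes. All 4 of these genes were called higher at week 12 than at baseline and 3 of them at week 4. Of all genes, 10.9% and 15.1% were. ISG15 ran from 6.40 to 7.60 at week 12 in the anti-miR-33 arm (median 6.88), against 6.25 to 7.01 at baseline (median 6.39), and from 6.61 to 7.78 in the control arm (median 6.92), against 5.63 to 6.98 (median 6.13). Its groups overlapped, although each of the 12 animals rose. Its change was 0.69 ± 0.14 at week 4 (limma adjusted p = 0.000322) and 0.62 ± 0.14 at week 12 (limma adjusted p = 0.00115). HERC6, the main ISG15 ligase of mice, ran from 6.02 to 7.30 at week 12 in the anti-miR-33 arm (median 6.88), against 5.61 to 6.39 at baseline (median 5.95). Control animals ran from 6.52 to 8.01 (median 7.55), against 5.75 to 6.35 (median 6.07), with no overlap. HERC6 rose by 0.79 ± 0.15 at week 4 and 1.01 ± 0.15 at week 12, a fold of 2.02 (limma adjusted p = 3.53e-06). HERC5, the main ISG15 ligase of human cells, gave 0.01 ± 0.09 at week 4 and 0.24 ± 0.09 at week 12 (limma adjusted p = 0.043). USP18 rose by 0.17 ± 0.06 and 0.15 ± 0.06 (limma adjusted p = 0.0172 and 0.0401).

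Among other antiviral effectors, 4 of 8 tested members were called higher at each treated time, where 15.1% of all genes were at week 4 and 10.9% at week 12. RSAD2 (viperin), which makes a nucleotide that ends viral RNA chains, ran from 5.20 to 5.96 at week 12 in the anti-miR-33 arm (median 5.64), against 5.09 to 5.35 at baseline (median 5.17). Control animals ran from 5.47 to 6.42 (median 6.27), against 4.58 to 5.28 (median 5.12). The control ranges were apart, and control animals 1, 3, 4 and 5 lay at 6.24 or above at week 12. RSAD2 rose by 0.26 ± 0.11 at week 4 (limma adjusted p = 0.0497) and 0.70 ± 0.11 at week 12 (limma adjusted p = 5.58e-06). CMPK2, a mitochondrial nucleotide kinase, rose by 0.29 ± 0.10 and 0.38 ± 0.10, and PLSCR1, a phospholipid scramblase, by 0.54 ± 0.18 and 0.50 ± 0.18. SAMD9L, which restricts poxviruses, gave -0.05 ± 0.08 at week 4 and rose by 0.23 ± 0.08 at week 12 (limma adjusted p = 0.0266). LY6E, a membrane-anchored protein that limits virus entry, rose by 0.17 ± 0.06 at week 4 (limma adjusted p = 0.0227) and stood at 0.05 ± 0.06 at week 12. The nuclease ISG20 and the nuclear body protein SP110 were not called at either time. A second SP110 probe set above the filter gave -0.37 at week 4 and -0.06 at week 12, against 0.04 and 0.09 on the one used. BST2 (tetherin), which holds budding virus on the cell surface, differed from the others, with 0.19 ± 0.09 at week 4 and -0.11 ± 0.09 at week 12, neither called. It fell by 0.30 ± 0.09 between weeks 4 and 12, in 10 of 12 animals (limma adjusted p = 0.0136). SAMD9 and TRIM22 lay below the filter, with values between 3.15 and 4.08 and between 3.45 and 4.56.

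Both tested transcription factors were called higher at both treated times, where 15.1% of all genes were at week 4 and 10.9% at week 12. IRF9, the DNA-binding partner of the STAT proteins, rose by 0.30 ± 0.07 at week 4 and 0.23 ± 0.07 at week 12 (limma adjusted p = 0.000702 and 0.00724). IRF7, which amplifies interferon alpha production, rose by 0.32 ± 0.10 and 0.37 ± 0.10 (limma adjusted p = 0.0108 and 0.00465). Of the dynamin-like GTPases, which trap viral nucleoproteins and capsids, MX1 rose by 0.40 ± 0.10 at both times (limma adjusted p = 0.00262 and 0.00318), and MX2 gave 0.01 ± 0.08 and 0.07 ± 0.08. PARP9, an ADP-ribosyltransferase family member that works with the ligase DTX3L, was among the members of largest change. It ran from 7.38 to 7.98 at week 12 in the anti-miR-33 arm (median 7.71), against 6.37 to 7.26 at baseline (median 6.88), and from 7.62 to 8.55 in the control arm (median 8.25), against 6.62 to 7.39 (median 7.15). Neither arm's ranges overlapped. PARP9 rose by 0.48 ± 0.10 at week 4 and 0.93 ± 0.10 at week 12 (limma adjusted p = 8.41e-09), with 0.17 and 0.25 from a second, dimmer probe set. PARP14 of the same family rose by 0.25 ± 0.09 at week 12 (limma adjusted p = 0.04).

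Of the remaining induced proteins, 3 of 6 tested members were called higher at each treated time, where 15.1% of all genes were at week 4 and 10.9% at week 12. IFI6, a small membrane protein that limits cell death and flavivirus replication, had the smallest p of all members. It ran from 8.61 to 8.96 at week 12 in the anti-miR-33 arm (median 8.71), against 7.66 to 8.53 at baseline (median 8.04), and from 8.73 to 9.10 in the control arm (median 8.97), against 7.65 to 8.14 (median 8.05). The ranges were apart in both arms. IFI6 rose by 0.73 ± 0.08 at week 4 (limma adjusted p = 6.25e-09) and 0.79 ± 0.08 at week 12 (limma adjusted p = 2.18e-09). IFI44, a cytoplasmic protein with antiviral activity, ran from 8.32 to 9.79 at week 12 in the anti-miR-33 arm (median 9.52), against 7.49 to 9.05 at baseline (median 8.13), and from 9.16 to 10.23 in the control arm (median 9.69), against 7.73 to 8.76 (median 8.52). It had the largest change of the members, 1.03 ± 0.17 at week 4 and 1.11 ± 0.17 at week 12, a fold of 2.16 (limma adjusted p = 6.56e-06). Its relative IFI44L lay below the filter, with values between 3.68 and 5.01. IFI35 rose by 0.23 ± 0.06 at week 4 (limma adjusted p = 0.00385), and EPSTI1 by 0.36 ± 0.08 at week 12 (limma adjusted p = 0.000685). XAF1, which promotes cell death, gave 0.01 ± 0.05 and 0.13 ± 0.05 and was not called. IFI27, often a strongly induced gene in blood, gave -0.23 ± 0.10 and -0.17 ± 0.10 and was not called.

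From week 4 to week 12 the members called higher were PARP9, RSAD2, OAS2, SAMD9L, IFIH1 and HERC5, with changes of 0.45 ± 0.10, 0.44 ± 0.11, 0.47 ± 0.12, 0.28 ± 0.08, 0.41 ± 0.13 and 0.24 ± 0.09. On the probe set used, PARP9 was higher in 12 of 12 animals between those weeks, where 2.44% of all genes were, and IFIH1 and SAMD9L in 11 of 12. A second, dimmer PARP9 probe set changed by 0.08 over those weeks. In at least 11 of 12 animals, 3 of 34 members and 7.46% of all genes were higher, so these counts lie near the background. ISG15, MX1, IRF9, OAS3 and USP18, already called at week 4, moved by -0.06, 0.00, -0.06, 0.01 and -0.02 over those weeks. Leaving out each animal in turn kept 16 of the 20 week 4 calls, 20 of the 25 week 12 calls and 5 of the 7 calls between weeks 4 and 12 in every such fit. At week 12 the calls lost were HERC5, PARP14, PLSCR1, SAMD9L and USP18, whose highest adjusted p in those limma fits was 0.122, 0.13, 0.0766, 0.0915 and 0.113. At week 4 they were CMPK2, LY6E, RSAD2 and USP18, with highest adjusted p of 0.0642, 0.0784, 0.131 and 0.0774 in limma. Between weeks 4 and 12 they were HERC5 and IFIH1, with 0.124 and 0.0623 in limma. RSAD2 at week 4 was lost on leaving out any of 9 animals, and HERC5 between weeks 4 and 12 on leaving out any of 10.

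Within the arms, 10 members were called higher at week 12 than at baseline and 1 lower in the anti-miR-33 arm, where 6.87% of all genes were called higher and 9.42% lower. In the control arm 20 were called higher and 0 lower, where 2.85% of all genes were called higher. The median change was 0.24 in the anti-miR-33 arm and 0.43 in the control arm. The 10 in the anti-miR-33 arm were PARP9, IFI6, IFI44, IFIH1, IFIT1, OAS1, IFIT3, HERC6, OAS3 and RSAD2, and all 10 were among the 20 of the control arm. The largest changes in the control arm were 1.26 ± 0.21 for HERC6, 1.20 ± 0.21 for IFIT1, 1.19 ± 0.24 for IFI44 and 1.09 ± 0.16 for OASL. The same genes changed by 0.77 ± 0.21, 0.88 ± 0.21, 1.03 ± 0.24 and 0.44 ± 0.16 in the anti-miR-33 arm, the last not called (limma adjusted p = 0.0585). A second OASL probe set gave 0.33 in the control arm and 0.17 in the anti-miR-33 arm. BST2 was the member called lower in the anti-miR-33 arm, at -0.36 ± 0.13 (limma adjusted p = 0.0489), against 0.14 ± 0.13 in the control arm. That call was lost on leaving out any of 10 of the 12 animals, with a highest adjusted p of 0.202 in limma. With the 3′ minus 5′ covariate 2 members (IFI6 and PARP9) stayed called in the anti-miR-33 arm, where 0.0807% of all genes were called higher, and 13 of the 20 in the control arm, where 0.601% were. Leaving out control animal 3, 4 or 5 reduced the control count to 13, 12 and 13, and leaving out only the week 12 array of control animal 5 reduced it to 16. A gene called in one arm and not in the other is not thereby shown to differ between them, and the differences themselves were tested as given further on.

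**Figure D3:**
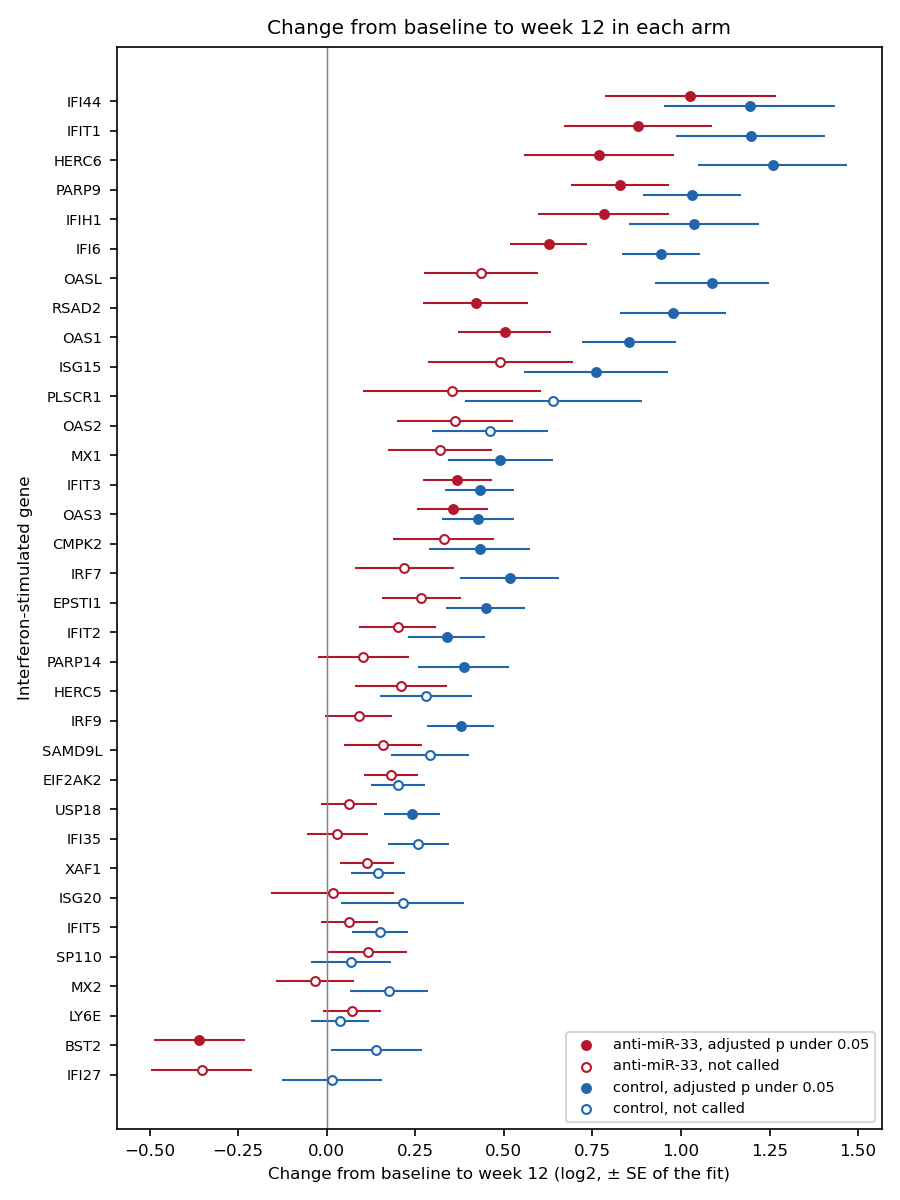
Change from baseline to week 12 in log2 units (horizontal axis) for each of the 34 interferon-stimulated genes in the anti-miR-33 arm (red, upper point of each pair) and the control arm (blue, lower point). Bars are ± SE of the fit over 6 animals an arm, and filled points mark changes with an adjusted p under 0.05, of which there are 11 in the anti-miR-33 arm and 20 in the control arm.

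At week 4, 9 members were called higher than baseline in the anti-miR-33 arm, where 8.06% of all genes were, and 17 in the control arm, where 6.41% were. The 9 were IFI6, IFI44, OAS3, OAS1, PARP9, IFIT1, LY6E, HERC6 and IRF7, of which the 6 of smallest p changed by 0.58 ± 0.11, 0.96 ± 0.24, 0.39 ± 0.10, 0.49 ± 0.13, 0.47 ± 0.14 and 0.65 ± 0.21. LY6E and IRF7 of these were not called in the control arm, at 0.09 ± 0.08 and 0.23 ± 0.14, against 0.25 ± 0.08 and 0.41 ± 0.14 in the anti-miR-33 arm. In the control arm IFI6 rose by 0.88 ± 0.11 (limma adjusted p = 6.8e-07), HERC6 by 0.97 ± 0.21, IFI44 by 1.09 ± 0.24, OASL by 0.70 ± 0.16 and ISG15 by 0.88 ± 0.20. A second OASL probe set gave 0.34 in that arm. The anti-miR-33 count was 5 without anti-miR-33 animal 3 or 4 and 4 without animal 6, and the control count was 13 without control animal 1, whose week 4 label carries the later diet. From week 4 to week 12 in the anti-miR-33 arm OAS2 was called higher, at 0.52 ± 0.16 (limma adjusted p = 0.0325), where 5.32% of all genes were. BST2 was called lower in that arm and interval, at -0.46 ± 0.13 (limma adjusted p = 0.0162), where 7.19% of all genes were. Neither call was made without anti-miR-33 animal 1, and OAS2 was also lost without animals 2 or 3. In the control arm PARP9, RSAD2 and SAMD9L were called higher over those weeks, at 0.55 ± 0.14, 0.54 ± 0.15 and 0.37 ± 0.11, where 4.04% of all genes were. Without control animal 1 none of these 3 was called, and OAS2 was called in their place. PARP9 alone was called without control animal 5 or without only its week 12 array. A second PARP9 probe set gave 0.15 in the control arm over those weeks. Without control animal 3, RSAD2 and EPSTI1 were called.

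Between the arms, limma called 0 of the 34 members at any time, and 0.0% of all genes were. At baseline the anti-miR-33 and control arms had a member mean of 6.18 ± 0.13 and 6.18 ± 0.07 (SD, n = 6 each). At week 4 the means were 6.40 ± 0.14 in the anti-miR-33 arm and 6.53 ± 0.16 in the control arm, and at week 12 they were 6.48 ± 0.13 and 6.69 ± 0.19. Single members were mostly lower in the anti-miR-33 arm after treatment. At week 12, 31 of the 34 had a difference (anti-miR-33 minus control) below 0, as did 6823 of the 13634 genes tested (50%), and the median difference was -0.17. At week 4 it was 28 of 34, where 46.3% of all genes lay below 0, with a median of -0.14. At baseline it was 18 of 34, where 51.8% of all genes lay below 0, with a median of -0.002. Because the members move together within an animal, the count of signs does not measure as many independent genes.

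**Figure D4:**
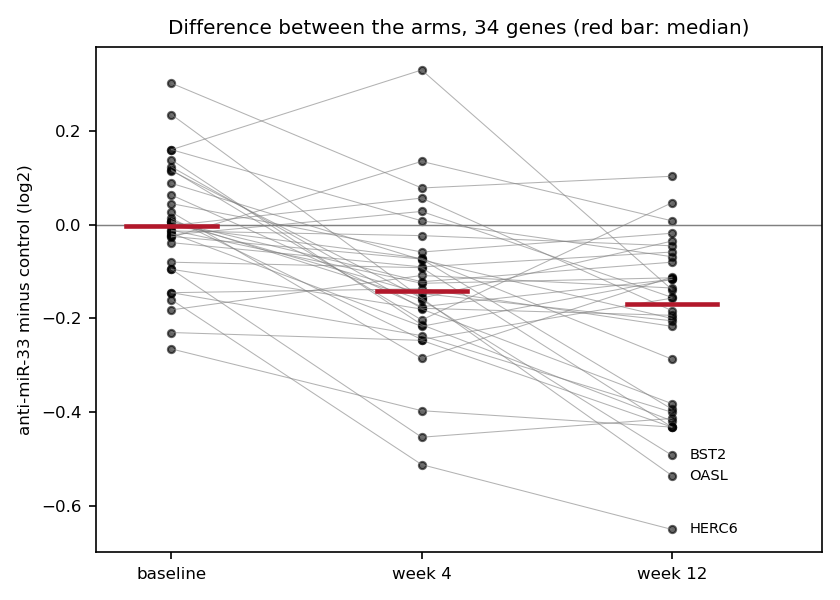
Difference between the arms (anti-miR-33 minus control, log2) for the 34 interferon-stimulated genes at baseline, week 4 and week 12, each gene a point joined across times, with the median as a red bar. The median lies at -0.002, -0.14 and -0.17, and HERC6, OASL and BST2 are lowest at week 12, with no gene called.

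The 8 members of smallest p at week 12 were BST2, OASL, OAS1, PARP9, HERC6, RSAD2, IFI27 and PARP14, all lower in the anti-miR-33 arm. These were the members with an unadjusted p under 0.05 in that direction, where 1.69% of all genes had one, and each had a limma adjusted p of 0.998. BST2 ran from 7.11 to 7.77 in the anti-miR-33 arm (median 7.44), against 7.48 to 8.16 in the control arm (median 8.01). The arms overlapped, with 3 anti-miR-33 animals above the lowest control animal. The BST2 difference was -0.49 ± 0.14, a fold of 0.711 (unadjusted p = 0.00112 and adjusted p = 0.998 in limma). OASL was at 5.34 to 6.06 in the anti-miR-33 arm (median 5.86), against 5.73 to 6.93 in the control arm (median 6.38), a difference of -0.54 ± 0.18 (unadjusted p = 0.00411 and adjusted p = 0.998 in limma). A second OASL probe set gave -0.14. OAS1 stood at 5.96 to 6.22 in the anti-miR-33 arm and 5.97 to 6.97 in the control arm, a difference of -0.43 ± 0.14. The 2 lowest control animals of OAS1, 2 and 6, were inside the anti-miR-33 range and the other 4 were above it.

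HERC6 had the largest difference between the arms at week 12, -0.65 ± 0.23, with values of 6.02 to 7.30 in the anti-miR-33 arm and 6.52 to 8.01 in the control arm. PARP9 differed by -0.43 ± 0.15, with values of 7.38 to 7.98 in the anti-miR-33 arm and 7.62 to 8.55 in the control arm, and by -0.18 on its second probe set. RSAD2 differed by -0.42 ± 0.16. In HERC6, PARP9 and RSAD2 control animals 1, 3, 4 and 5 again lay above every anti-miR-33 animal. IFI27 differed by -0.39 ± 0.15, with values of 6.49 to 7.38 in the anti-miR-33 arm (median 6.80) and 7.08 to 7.41 in the control arm (median 7.28). PARP14 differed by -0.29 ± 0.14. Its levels were 6.66 to 7.11 in the anti-miR-33 arm (median 6.92) and 6.60 to 7.61 in the control arm (median 7.31). IFIH1, IFIT1, IFI44 and PLSCR1 differed by -0.40 ± 0.20, -0.41 ± 0.23, -0.43 ± 0.26 and -0.38 ± 0.27, with unadjusted p above 0.05 in limma. ISG15 and IFIT3 were nearly level between the arms, at -0.03 ± 0.22 and -0.02 ± 0.11, and the 3 members above 0 were ISG20 (0.10 ± 0.19), HERC5 (0.05 ± 0.14) and LY6E (0.01 ± 0.09). The arms overlapped at week 12 in all 34 members, and did not overlap in 0.0733% of all genes tested.

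At week 4 the 6 members of smallest p were IFIT2, HERC6, IRF7, USP18, IFIT1 and PARP9, each with a limma adjusted p of 0.998. IFIT2, HERC6 and USP18 had an unadjusted p under 0.05 and were lower in the anti-miR-33 arm, by -0.28 ± 0.12, -0.51 ± 0.23 and -0.18 ± 0.09 in limma, where 1.76% of all genes were. IRF7 was higher in the anti-miR-33 arm at week 4, by 0.33 ± 0.15, also with an unadjusted p under 0.05 in limma, where 422 of the 13634 genes were. Its values were 5.19 to 5.95 (median 5.68) against 5.04 to 5.49 in the control arm (median 5.23). By week 12 the IRF7 difference was -0.14 ± 0.15. IFIT1 and PARP9 differed by -0.45 ± 0.23 and -0.25 ± 0.15 at week 4. At baseline the 6 members of smallest p were IFI35, ISG20, PARP9, SP110, OAS3 and ISG15, with differences of 0.16 ± 0.09, 0.30 ± 0.19, -0.23 ± 0.15, -0.18 ± 0.12, -0.14 ± 0.11 and 0.23 ± 0.22. The lowest unadjusted p among them was 0.0978 in limma. PARP9 thus had a difference of -0.23 before treatment, beside its -0.43 at week 12.

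The change from baseline to week 12 was compared between the arms as an interaction, in which each animal is set against its own baseline. Again 0 of the 34 members were called, and 0.0% of all genes were. Of the members, 32 of 34 had a smaller change in the anti-miR-33 arm, where 47.8% of all genes did, and the median difference in change was -0.20, or -0.126 without control animal 5. The members with an unadjusted p under 0.05 were OASL (-0.65 ± 0.23), BST2 (-0.50 ± 0.18), RSAD2 (-0.56 ± 0.21), IRF9 (-0.29 ± 0.13) and IFI6 (-0.32 ± 0.15), all below 0, where 1.11% of all genes were below 0 with such a p. The next was OAS1, at -0.35 ± 0.19, and each of these 6 had a limma adjusted p of 0.999. A second OASL probe set gave a smaller difference in change to week 12, -0.16. For the change from baseline to week 4, 28 of 34 were below 0, where 43.5% of all genes were, with a median of -0.13. The 6 of smallest p there were USP18 (-0.24 ± 0.11), IFIT2 (-0.31 ± 0.15), IFI6 (-0.30 ± 0.15), HERC5 (-0.32 ± 0.18), RSAD2 (-0.35 ± 0.21) and LY6E (0.16 ± 0.12), with an adjusted p of 1.0 in limma. From week 4 to week 12, 22 of 34 were below 0, where 53.0% of all genes were, with a median of -0.07. The 6 of smallest p there were IRF7 (-0.47 ± 0.20), BST2 (-0.33 ± 0.18), OAS1 (-0.34 ± 0.19), OASL (-0.38 ± 0.23), IFI27 (-0.32 ± 0.20) and EPSTI1 (-0.24 ± 0.16), with an adjusted p of 0.999 in limma. Second probe sets above the filter did not share this for OAS1 and OASL, at 0.15 and 0. That last median was -0.03 without the week 12 array of control animal 5, and it was 0.007 without that animal. The comparisons of the arms at a time and of their changes share the same arrays, so they are not separate lines of evidence.

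The members were not equally alike across animals. After each group's mean was taken away, the deviation of each gene over the 36 arrays, 3 from each animal, was set against the mean deviation of the other 33 members. Pearson r was highest for PARP14 (0.82), IFIH1 (0.82), HERC6 (0.80), PARP9 (0.80), OAS3 (0.77) and IFI44 (0.77). It was lowest for LY6E (-0.21), ISG20 (-0.04), USP18 (0.03), OAS2 (0.04) and IFIT5 (0.12). Of the members, 17 of 34 exceeded 0.5, while 0.588% of the other 13600 genes did so against the mean of the members. These values describe arrays that share animals and array-wide effects, and they carry no test. PLSCR1 varied most within groups, with an SD of 0.56, followed by IFI44 (0.53), IFIT1 (0.44), HERC6 (0.43) and ISG15 (0.43).

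Genes upstream of the response were followed as a list of ligands, receptors and kinases, of which 5 of 13 were tested. IFNAR1 and IFNAR2, the receptor chains, gave -0.05 ± 0.05 and 0.02 ± 0.05 at week 12 relative to baseline and were not called. TYK2, a receptor kinase, fell by 0.57 ± 0.10 (limma adjusted p = 2.38e-05). It was the member of that list called at week 12, where 16.5% of all genes were called lower. At week 4 TYK2 and JAK1 were called lower, by 0.26 ± 0.10 and 0.15 ± 0.06, where 20.6% of all genes were. IFNB1, the interferon beta gene, lay below the filter. Of the nucleic acid sensors and adaptors, 13 of 19 symbols were tested (the list holds older and newer names of the same genes). At week 12, 5 were called higher and 2 lower, where 10.9% of all genes were called higher and 16.5% lower. The count called lower is thus near the background. DHX58 and RIGI, RNA helicases of the same family as IFIH1, rose by 0.34 ± 0.08 and 0.30 ± 0.06, with MYD88, TBK1 and TLR7 at 0.17 ± 0.06, 0.20 ± 0.06 and 0.24 ± 0.08. AIM2 and IRF3 fell by 0.22 ± 0.06 and 0.20 ± 0.07.

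A list of 8 genes drawn up as negative regulators had 2 called higher and 0 lower at week 12, where 10.9% of all genes were called higher. One was UBE2L6, which is the conjugating enzyme for ISG15 and itself interferon-stimulated rather than a known inhibitor, at 0.60 ± 0.10 (limma adjusted p = 2.52e-05), and the other was TRIM21, a ubiquitin ligase, at 0.29 ± 0.06. At week 4, 5 were called higher (PTPN6, SOCS1, SOCS3, TRIM21 and UBE2L6) and PTPN2 lower, where 15.1% of all genes were called higher and 20.6% lower. Another list held genes that respond chiefly to interferon gamma. Of 12 tested, 4 were called higher at week 4 (CXCL10, IRF1, PSMB8 and TAP1), where 15.1% of all genes were. At week 12, 7 of the 12 were, where 10.9% of all genes were, and 0 were called lower at either time. At week 12 the changes were 1.09 ± 0.12 for PSMB8 and 0.82 ± 0.14 for PSMB9, both immunoproteasome subunits, 0.66 ± 0.12 for the chemokine CXCL9, 0.58 ± 0.13 for GBP1, 0.42 ± 0.11 for GBP2, 0.36 ± 0.08 for TAP1 and 0.33 ± 0.09 for IRF1. The mean of these 12 genes at week 12 ran from 6.68 to 6.86 in the anti-miR-33 arm (median 6.77), against 6.61 to 7.68 in the control arm (median 7.12). Control animals 1, 3, 4 and 5 were above the anti-miR-33 range, as they were for the interferon-stimulated genes, and animals 2 and 6 were not. Between the arms at week 12, 12 of 12 were below 0, where 50% of all genes were, with a median difference of -0.36, and 0 were called. These genes share the same animals, so the count of signs does not measure as many independent genes. In limma 7 of the 12 had an unadjusted p under 0.05, all below 0, where 1.69% of all genes were below 0 with such a p. Those 7 were CXCL9, GBP1, IDO1, IRF1, PSMB9, TAP1 and WARS1, and the lowest unadjusted p was 0.00955, for IRF1.

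Markers of other liver cells changed over the same weeks. In a bulk biopsy, fewer cells of a type and less RNA per cell cannot be told apart. Of all genes tested, 16.5% were called lower at week 12 than at baseline and 20.6% at week 4. Of 8 endothelial markers, 7 were called lower at week 12 and 0 higher, with a median change of -0.79, and CLEC4G and STAB1, genes of the sinusoidal endothelium, fell by 1.35 ± 0.10 and 0.94 ± 0.08. Their mean per array ran from 6.27 to 6.79 at week 12, against 6.87 to 7.65 at baseline, with no overlap. Of 9 macrophage markers, 3 were called lower (CD163, CSF1R and MARCO) and 0 higher, and their mean ran from 6.58 to 7.16 at week 12, against 6.65 to 7.27 at baseline. Of 9 lymphocyte markers, PTPRC was called lower, by 0.75 ± 0.16, and 0 were called higher, a share below that of all genes. Their mean ran from 5.22 to 5.63 at week 12, against 5.19 to 5.65 at baseline. Of 3 tested markers of plasmacytoid dendritic cells, which release much interferon alpha, 0 were called and the mean ran from 5.58 to 5.99 at week 12, against 5.61 to 6.14 at baseline. S100A9 was called higher of 2 neutrophil markers, by 0.20 ± 0.06, and HBB and ALAS2 lower of 3 erythroid markers, by 1.37 ± 0.23 and 0.61 ± 0.15. Of 10 hepatocyte markers, 0 were called at week 4 or week 12. At week 4, 7 endothelial markers were called lower and 1 higher, and 5 macrophage markers lower. Lymphocyte markers had 2 called lower and 1 higher at that time, and 2 of 2 neutrophil markers were called higher, where 15.1% of all genes were. Of the plasmacytoid dendritic and erythroid markers, 0 were called at week 4. Between the arms at week 12, 0 of these markers were called. There 8 of 8 endothelial, 7 of 9 macrophage and 7 of 9 lymphocyte markers lay below 0, where 50% of all genes did. Most interferon-stimulated genes lay below 0 too, while 10 of 10 hepatocyte markers lay above 0. The median of the hepatocyte markers was 0.14, and it was 0.03 without the week 12 array of control animal 5, so that array set most of it. The part of these cells in the interferon-stimulated genes was not tested.

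**Figure D5:**
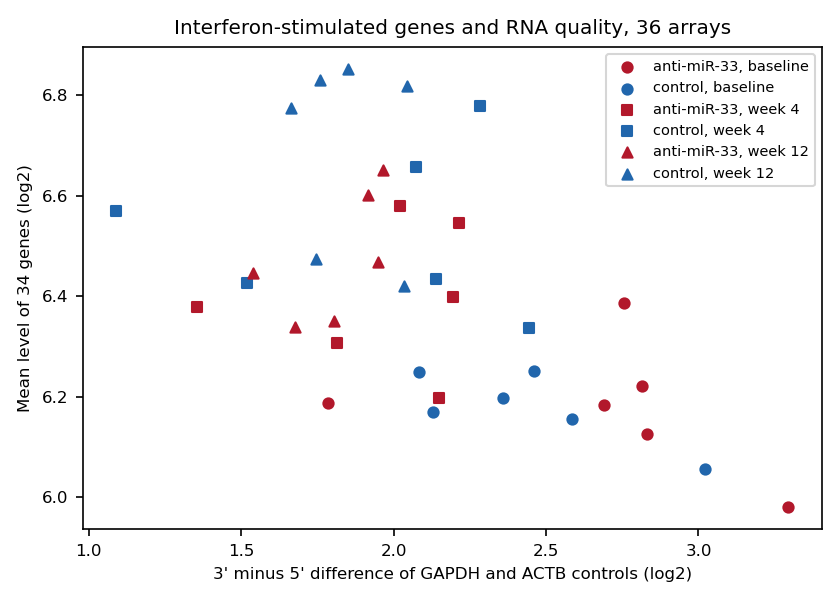
Mean log2 level of the 34 interferon-stimulated genes (vertical axis) against the 3′ minus 5′ signal difference of GAPDH and ACTB (horizontal axis, log2) on each of the 36 arrays. Colour gives the arm (red anti-miR-33, blue control) and shape the time (circle baseline, square week 4, triangle week 12), and baseline arrays lie lower and mostly further right than the others.

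RNA quality moved with time but less with the arm. At week 12 the 3′ minus 5′ difference averaged 1.81 ± 0.17 in the anti-miR-33 arm and 1.85 ± 0.16 in the control arm (SD, n = 6 each), and at baseline 2.70 ± 0.49 and 2.44 ± 0.34. Entering it as a covariate left the median difference between the arms at -0.17 for week 12 and -0.14 for week 4, and the median difference in change to week 12 at -0.20. For the changes from baseline it lowered the median of the members to 0.28 at week 12 and 0.21 at week 4, so part of the rise over time moved with this measure. Whether RNA quality accounts for it was not tested, since it and time move together. Over the 2 intervals that start at baseline, arms averaged, the covariate ended calls and added none. It left 14 of 25 calls at week 12 and 11 of 20 at week 4.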

How the data were processed

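Total RNA from each biopsy was measured on a human HG-U133 Plus 2.0 array. The authors deposited log2 values for 54675 probe sets, made with RMA per the submitters' processing notes. The RMA version was not given in the sources used here, nor was it said if all arrays were normalized together. RMA makes the arrays' distributions alike (array medians 4.42 to 4.51), so a shift of most transcripts would not be seen. The number of arrays limits the precision of every value. Of 19775 genes with a probe set annotated to them alone, the probe set of highest mean was used, and those with a mean under 4.459, the median of all probe sets, were left out, which gave 13634 tested genes. Symbols come from the platform annotation, which can be old.

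One limma model (version 3.58.1, in R 4.3.3) took all 36 arrays, with a mean for each of the 6 groups, and treated animal as a random effect (estimated correlation 0.151). The pairing comes from the animal identifiers in the labels. Tests were moderated and two-sided, with Benjamini-Hochberg adjustment over all tested genes within each of 15 comparisons and a threshold of 0.05. The fit was tested on simulated data. The genes given with full statistics were the 8 of smallest p between the arms at week 12, the 6 of smallest p in each other comparison, and those called. The members and the gene lists were chosen with earlier results of these data known, so no p over a list is given. Alternatives were no block, a fixed block, other filters, the mean of probe sets, repeated quantile normalization, an RNA quality covariate, another prior, array weights and leaving out animals or arrays. No promoter or transcript sequences were used here, and the planned promoter motif count was not run.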

Additional observations from a re-analysis of the deposited data

Results flagged for a closer look

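Single animals stood apart from the other 5 of their group in 9 of 210 groups of 6 examined, judged by the gap to the nearest animal relative to the whole range. Chance marks about 1 in 20 groups. Control animal 5 was low at baseline in IFI44 (7.73, nearest 8.41), IFIH1 (5.98, nearest 6.72) and RSAD2 (4.58, nearest 5.02), and control animal 4 in IRF7 (4.68, nearest 5.04). Anti-miR-33 animal 4 was low at baseline in OAS1 (5.04, nearest 5.57). Control animal 4 was high at week 4 in IFI27 (7.71, nearest 7.04). In the anti-miR-33 arm, animal 1 was high in USP18 at week 4 (4.78, nearest 4.49) and in XAF1 at week 12 (4.91, nearest 4.65), and animal 2 in PARP14 at week 4 (7.40, nearest 6.90). The low baseline values of control animal 5 enter its own changes over time, and without that animal the median difference in change between the arms from baseline to week 12 was -0.126, against -0.20 with all animals.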

How the results depend on the processing

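No result changed its direction while called, and 0 members were called between the arms under every alternative run. The median difference between the arms at week 12 stayed between -0.225 and -0.143 over all of them. With the RNA quality covariate, members called fell to 11 (baseline to week 4) and 14 (baseline to week 12) with the arms averaged, to 5 and 2 in the anti-miR-33 arm, and to 10 for baseline to week 4 in the control arm. Array weights gave 17 for baseline to week 12 in the anti-miR-33 arm. Without the replicate block, 0 were called from week 4 to week 12 in that arm, and 18 and 21 from baseline with the arms averaged. With the animal as a fixed replicate block these were 21 and 25. Without the filter, the median change to week 4 in the anti-miR-33 arm was 0.127. Without the week 12 array of control animal 5, 1 member was called from week 4 to week 12 in the control arm. Leaving out each animal in turn gave 12 to 20 calls for baseline to week 12 and 1 to 4 for week 4 to week 12 in the control arm, and 4 to 12 for baseline to week 4 and 0 to 3 for week 4 to week 12 in the anti-miR-33 arm. Single genes were followed in 159 pairs of a gene and a comparison, those called or of smallest p. Of the 3541 results for these, 3241 kept their side of the threshold, 292 lost a call and 8 gained one. Calls gained by other members are not in this tally. The cause of these changes was not tested. With the baseline and week 12 arrays alone, a choice made after seeing the data, 24 members were called for baseline to week 12. With 6 animals an arm, a difference that was not called may still exist.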
